A study of Mus musculus with 4 samples.

Results

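Aquaporins are pore proteins that let water, and in some members glycerol, cross cell membranes. The 9 genes described here, Aqp1, Aqp2, Aqp3, Aqp4, Aqp5, Aqp7, Aqp8, Aqp9 and Aqp11, were taken by exact symbol from a table of 23281 mouse genes, and all 9 were listed. They were measured by RNA sequencing in 3 libraries of horizontal basal cells (HBCs) of the olfactory epithelium and in 1 library of respiratory basal cells (RBCs). HBCs are the reserve stem cells at the base of the olfactory epithelium, and RBCs are the basal stem cells of the respiratory epithelium. The HBC libraries came from wildtype mice and from cells kept in culture to passage 3 under control conditions, with no sort given. The RBC library came from microdissected cells sorted as TdTomato+ from the strain KRT5-CreER;Ai9-fl(stop)TdTomato, in which the keratin 5 promoter drives an inducible Cre that switches on the red reporter. Culture, genotype, sorting and tissue thus differ together between the groups and cannot be told apart. Ages were not given in the sources used here. Whether separate animals gave the HBC libraries is not labelled, so the p-values below cover only variation among these libraries, possibly technical.

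Family members differ in cargo and place. Aqp1, Aqp2, Aqp4 and Aqp5 chiefly pass water, whereas Aqp3, Aqp7 and Aqp9 also pass glycerol and are called aquaglyceroporins. In nasal tissue, Aqp5 is known from secretory glands and the apical face of epithelia, Aqp3 and Aqp4 from the basal and lateral membranes of epithelial cells, and Aqp1 from blood vessels and connective tissue. Aqp2 is the vasopressin-controlled channel of the kidney collecting duct, and Aqp11 is a divergent member found mainly inside the cell.

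Values are FPKM, fragments per kilobase of transcript as named by the authors, divided here by 1 depth factor per library: 0.843, 1.05 and 1.07 in the HBC group and 1.06 in the RBC group. Because FPKM is per length, levels of different genes in a library can be set side by side. Read depth was not given in the sources used here. Markers of basal cells were present in both groups but stood higher in the RBC library, where 4 of 5 (Krt14, Krt15, Trp63 and Itgb4) were called higher. The exception was the keratin gene Krt5, on which the reporter depends, at 18625 ± 369 (SD, n = 3) in the cultures and 26488 in RBCs. The RBC library also held markers of other cells. In it, 8 of 8 fibroblast, 8 of 10 endothelial, 6 of 7 tested leukocyte, 6 of 6 olfactory neuron and 7 of 8 gland and serous cell markers were called higher than in the HBC libraries. Of these, 2, 8, 5, 1 and 5 had an HBC mean under 1 and entered the test only through the RBC library, so they could hardly be called otherwise. The other lists gave 6 of 6 ciliated, 6 of 6 ionocyte and tuft, 5 of 5 glial and 5 of 6 sustentacular markers. They also gave 2 of 4 tested neutrophil, 2 of 6 tested erythrocyte and 1 of 2 tested fat cell markers. In that order, 3, 4, 4, 4, 2, 2 and 1 of these entered only through the RBC library. The sustentacular marker Krt18 was called higher in the HBC libraries. In bulk libraries, more cells of a type and more RNA per cell cannot be told apart.

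Almost all aquaporin signal came from Aqp3, Aqp5 and Aqp4, and the leading gene differed between the groups. Aqp5 led in each HBC library and Aqp3 led in the RBC library. The sequences before the annotated starts of these 2 leading genes are shown because their levels moved in opposite directions. They are the 250 bases upstream in RefSeq's GRCm38.p6, read 5′ to 3′ on the gene's strand, at chr4:41098184-41098433 (minus strand) for Aqp3 and chr15:99590778-99591027 (plus strand) for Aqp5. Capitals mark matches on either strand to the TATA box letters TATAAA, and also to the GC box letters GGGCGG.
Aqp3: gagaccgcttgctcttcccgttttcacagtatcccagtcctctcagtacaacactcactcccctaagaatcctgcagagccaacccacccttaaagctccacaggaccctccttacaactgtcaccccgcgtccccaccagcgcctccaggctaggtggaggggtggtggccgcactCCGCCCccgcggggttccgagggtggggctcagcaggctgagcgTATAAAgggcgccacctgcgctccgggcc
Aqp5: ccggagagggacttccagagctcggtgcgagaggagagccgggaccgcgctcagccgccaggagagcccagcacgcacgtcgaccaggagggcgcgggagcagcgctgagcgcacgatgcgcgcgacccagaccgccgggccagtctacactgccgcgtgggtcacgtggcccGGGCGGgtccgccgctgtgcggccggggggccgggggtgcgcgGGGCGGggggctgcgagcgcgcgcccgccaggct
The Aqp3 window held 1 TATAAA, at 29 to 24 bases before the start, and 1 GC box on the opposite strand at 73 to 68. The Aqp5 window held no TATAAA and 2 GC boxes, at 77 to 72 and 34 to 29 bases before the start. CCAAT, the third motif searched, matched in neither window. Of 32536 such windows in the table, 12.3% held TATAAA, 33.0% held GGGCGG and 33.8% held CCAAT on either strand. The share of G and C was 64.0% for Aqp3 and 78.4% for Aqp5, against a median of 52.4%, and 98.1% of windows had a lower share than that of Aqp5. These matches are descriptions of letters, and no binding was measured.

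Aqp3, the aquaglyceroporin of basal epithelial cells, was at 6197, 6254 and 6133 in HBC libraries 1, 2 and 3 and at 21482 in the RBC library. The 3 HBC libraries were nearly level and the RBC library stood far above them. The RBC value was 3.47-fold the HBC mean of 6195 ± 60.2 (SD, n = 3), a log2 change on log2(value + 1) of 1.79 ± 0.03 (SE; limma adjusted p = 0.000251). Among all genes of a library, Aqp3 ranked 201 to 218 by level in the cultures and 41 in RBCs. Basal cell markers stood higher in RBCs, as Aqp3 did: the 5 summed to 23752 to 24694 in the cultures and 61790 in RBCs. The basal cell regulator Trp63 was at 546 ± 12.8 (SD, n = 3) and 4307. Most of the sum in the cultures was Krt5, at 18625, and its 1.42-fold change was not called. Markers of other cells also stood higher in the RBC library, so this was not particular to basal cells. The part of basal cells in the Aqp3 difference was not tested.

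Aqp5, the water channel of secretory cells, went the other way. It was at 19775, 20684 and 20860 in the cultures and at 5534 in RBCs. Every HBC library was thus well above the RBC library. The HBC mean of 20440 ± 583 (SD, n = 3) was 3.69-fold the RBC value, and the log2 change, RBC minus HBC, was -1.88 ± 0.06 (SE; limma adjusted p = 0.000911). Aqp5 ranked 48 to 52 among all genes in the cultures and 204 in RBCs. The 8 gland and serous cell markers summed to 289 to 299 in the HBC libraries and 21761 in the RBC library. In the HBC libraries 5 of the 8, Sox10, Dcpp1, Dcpp2, Dcpp3 and Bpifb9b, were listed at 0. Single genes carried these sums. Sox9, which was not called, was at 200 in the HBC libraries, and Lyz2 was at 14770 in the RBC library. Of the 6 sustentacular cell markers, Krt18 was called higher in the HBC libraries, at 38620 ± 915 (SD, n = 3) against 10071. The other 5 were called higher in the RBC library. The part of any cell type in the Aqp5 difference was not tested.

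Aqp4, a high-capacity water channel anchored by the dystrophin complex, was at 2734, 2403 and 2387 in the cultures and 3241 in RBCs. The RBC value lay above all 3 HBC values, and HBC library 1 lay nearest to it. It was 1.29-fold the HBC mean of 2508 ± 196 (SD, n = 3) and was not called (log2 change 0.37, 95% interval -0.01 to 0.75, limma adjusted p = 0.0664). It turned when library medians were equalized (log2 change -0.13), so no direction is given for Aqp4.

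**Figure D1:**
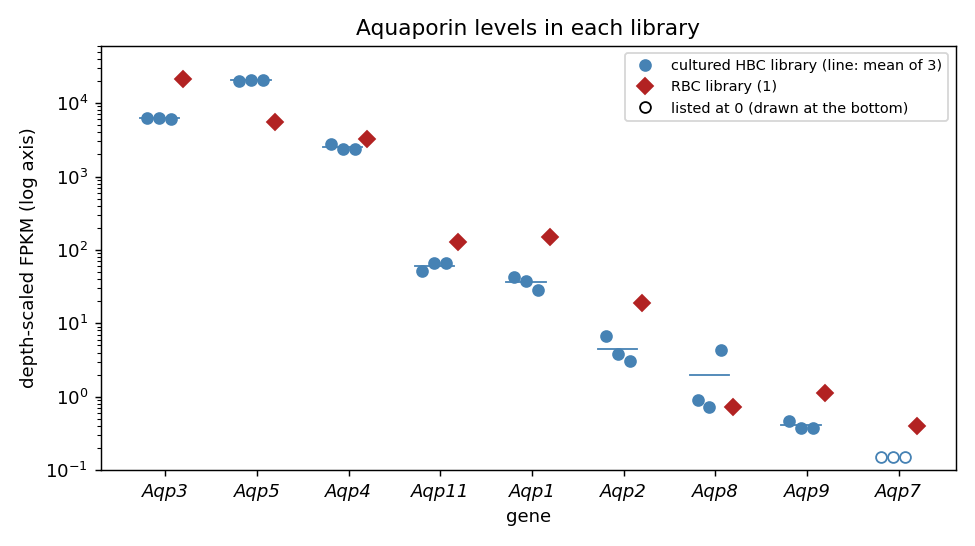
Level of each aquaporin (depth-scaled FPKM, log axis) in the 3 cultured HBC libraries (circles, line at their mean) and the RBC library (diamond), with genes ordered by mean level. Aqp3, Aqp5 and Aqp4 lie between 2387 and 21482 in every library, Aqp11 and Aqp1 between 28.1 and 149.8, and the other members below 20.

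The opposite order of Aqp5 and Aqp3 was also visible within each library, where the depth factor cancels. Aqp3 was 0.313, 0.302 and 0.294 times Aqp5 in HBC libraries 1, 2 and 3 and 3.88 times Aqp5 in the RBC library. On the log2 scale the ratio was -1.72 ± 0.05 (SD, n = 3) and 1.96, a difference of 3.68, far beyond the spread of the HBC libraries. With 3 libraries against 1, a two-sided exact permutation test gives p = 0.25, the smallest p that this design allows. The ratio of Aqp3 to Aqp4 was 2.27 to 2.60 in the cultures and 6.63 in RBCs, and that of Aqp5 to Aqp4 was 7.23 to 8.74 and 1.71.

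Set against the sum of the 9 genes, Aqp5 made up 69.9% ± 1.10 (SD, n = 3) in the cultures and 18.1% in RBCs. Aqp3 made up 21.2% ± 0.357 and 70.3%, and Aqp4 8.58% ± 0.787 and 10.6%. The other 6 genes together held 0.356% ± 0.0108 in the cultures and 0.983% in RBCs. The summed level was 28809, 29449 and 29483 in the cultures and 30557 in RBCs, which was 4.48% above the HBC mean. Unlike the shares, the sum rests on the scaling: with library medians equalized the RBC sum was -26.4% from the HBC mean, and under quantile normalization it was 19.9% above it, so no direction is given for the sum. As a share of all deposited values in a library, the 9 genes held 0.290% to 0.299% in the cultures and 0.328% in RBCs. The leading gene differed between the groups, and none of these scalings could change it, because each keeps the order of genes within a library.

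**Figure D2:**
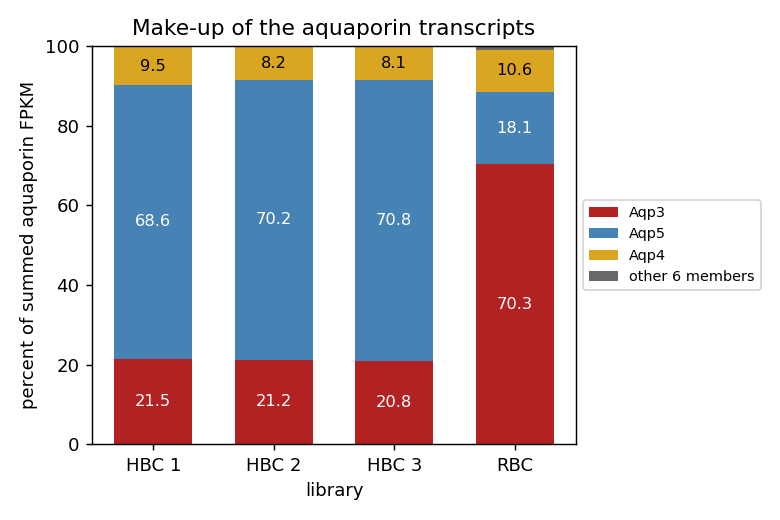
Percent of the summed FPKM of the 9 aquaporins held by Aqp3, Aqp5, Aqp4 and the other 6 members, in each of the 4 libraries. Aqp5 holds 68.6% to 70.8% in the HBC libraries and 18.1% in the RBC library, and Aqp3 holds 20.8% to 21.5% and 70.3%.

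Aqp1, the channel of blood vessels and red cells, was low in the cultures and higher in the RBC library. It was at 42.7, 37.6 and 28.1 in HBC libraries 1, 2 and 3 and at 149.8 in the RBC library. The HBC libraries did not reach the RBC value, which was 4.15-fold their mean of 36.1 ± 7.40 (SD, n = 3; log2 change 2.04 ± 0.31, SE; limma adjusted p = 0.0164). Without HBC library 2 the call was lost (adjusted p = 0.0740; 0.0106 to 0.0740 across 12 alternatives). Markers of cells known to carry Aqp1 moved with it. The 10 endothelial markers summed to 2.78 to 4.38 in the HBC libraries, with Tie1, Cldn5 and Emcn at 0 in all 3, and to 103 in the RBC library. All 10 had an HBC mean under 1 and entered the test only through the RBC library. The 8 fibroblast markers summed to 48.4 to 68.4 and 7764, and the 7 erythrocyte markers to 55.2 to 111 and 398. Most of the fibroblast sum in the RBC library was Dcn, at 6902. The RBC library was sorted as TdTomato+ by a keratin 5 reporter, and these sums are its values after that sort. The part of these cells in the Aqp1 difference was not tested.

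Aqp11, the intracellular member, was at 51.8, 65.6 and 66.1 in the cultures and 129 in RBCs. HBC library 1 was the lowest of the 4. The RBC value was 2.11-fold the HBC mean of 61.2 ± 8.11 (SD, n = 3; log2 change 1.08 ± 0.20, SE; limma adjusted p = 0.0261). This call sat just past the 2-fold minimum. It was lost without any single HBC library: without library 1 the log2 change was 0.95, and without library 2 or 3 the adjusted p was 0.0836 or 0.0797 (range 0.0185 to 0.151 over 12 alternatives). In the HBC libraries Aqp11 exceeded Aqp1, by 1.21 to 2.35 times, whereas in the RBC library it was 0.862 times Aqp1.

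Aqp2, the collecting duct channel, was at 6.69, 3.83 and 3.05 in the cultures and at 19.1 in RBCs. These are low values, and 54.1% of all genes stood above Aqp2 in HBC library 2 and 55.3% in the RBC library, so its standing among genes was nearly the same. The RBC value was 4.22-fold the HBC mean of 4.52 ± 1.92 (SD, n = 3; log2 change 1.92 ± 0.48, SE; limma adjusted p = 0.0468). The call was lost without HBC library 2 (adjusted p = 0.149) or library 3 (adjusted p = 0.107), and under quantile normalization the direction turned (log2 change -0.39; adjusted p from 0.0210 to 0.410 over 12 alternatives). The vasopressin receptor gene Avpr2, which controls Aqp2 in kidney, was at 0.204 ± 0.354 (SD, n = 3) in the cultures and 5.49 in RBCs. It entered the test only through the RBC library and was named after its values were seen.

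Aqp8, Aqp9 and Aqp7 stood near the smallest values the table holds for them. Aqp8, a channel of secretory and gut epithelia, was deposited at 0.763, 0.761 and 4.61 in HBC libraries 1, 2 and 3 and at 0.766 in the RBC library. Only HBC library 3 stood apart, at 6.06 times the smallest value, and the other 3 libraries agreed to within 1%. Aqp8 passed the filter through that library and was not called (log2 change -0.59, 95% interval -3.67 to 2.48, limma adjusted p = 0.588).

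Aqp9, an aquaglyceroporin of liver and leukocytes, was deposited at 0.401, 0.400 and 0.402 in the cultures and 1.20 in RBCs, which was 3.01 times the smallest value. The equal values of Aqp8 and Aqp9 across libraries of unequal sums show the same unit step in each library, which is why a depth factor was applied. Aqp7, the aquaglyceroporin of fat cells, had a value of 0 in every culture and of 0.423 in RBCs. The fat cell genes Adipoq, Plin1, Cidec and Lep were at 0 in all 4 libraries. Neither Aqp9 nor Aqp7 reached the mean of 1 needed for a test, and no fold is given for them.

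Of the 7 members tested, 4 (Aqp1, Aqp2, Aqp3 and Aqp11) were called higher in the RBC library, where 34.2% of all 16440 genes tested were called higher. Aqp5 was the 1 member called higher in the HBC libraries, against 12.8% of all genes tested, and Aqp4 and Aqp8 were not called. The RBC value lay more than 1% outside the range of the 3 HBC libraries for 6 of the 7, all but Aqp8, as it did for 93.1% of genes tested, so this count says little about the members. The median log2 change was 1.08 over the 7 members and 0.45 over all genes tested. The calls of Aqp3 and Aqp5 held in all 12 alternatives, with log2 changes of 1.29 to 2.0 and of -2.39 to -1.71.

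**Figure D3:**
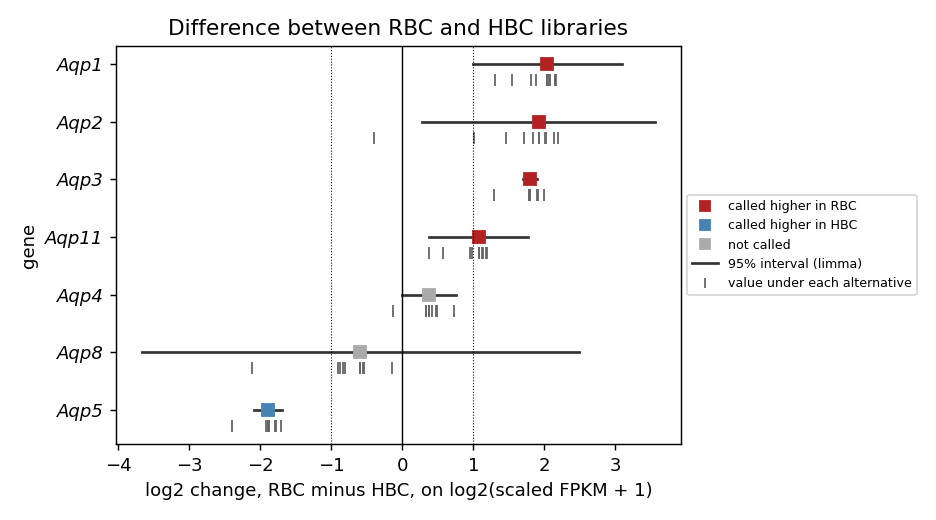
Log2 change, RBC minus HBC, of the 7 tested aquaporins (squares), with limma's 95% interval (bars) and the value under each alternative (ticks); dotted lines mark 2-fold. Aqp3 (1.79) and Aqp5 (-1.88) have narrow intervals on opposite sides of 0, while those of Aqp2 and Aqp8 are wide and the ticks of Aqp2 and Aqp4 fall on both sides of 0.

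By level, the order in the HBC libraries was Aqp5, Aqp3, Aqp4, Aqp11, Aqp1, Aqp2, Aqp8, Aqp9 and Aqp7. Neighbours in this order did not overlap between libraries, except Aqp2 and Aqp8. In the RBC library the order was Aqp3, Aqp5, Aqp4, Aqp1, Aqp11, Aqp2, Aqp9, Aqp8 and Aqp7, with no replicate to give a spread. The step from Aqp4 to the next gene was the widest among genes above 10: 41.0-fold in the HBC libraries and 21.6-fold in the RBC library. The other family genes in the table were at or near the smallest values: the lens gene Mip was at 0.676 ± 0.244 (SD, n = 3) in the cultures but listed at 0 in RBCs, and Aqp6 and Aqp12 were listed at 0 in the cultures but at 1.99 and 1.05 in RBCs.

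Genomic neighbours did not share levels with the abundant members. In RefSeq's order (GRCm38.p6, used for gene order only because the submitters' processing notes name mm9), Aqp2, Aqp5 and Aqp6 adjoin on chromosome 15, and Aqp7 and Aqp3 adjoin on chromosome 4. Aqp5 was at 20440 in the HBC libraries while its neighbours Aqp2 and Aqp6 were at 4.52 and 0. Aqp3 was at 21482 in the RBC library while its neighbours Aqp7 and Nol6, a ribosome biogenesis gene, were at 0.399 and 371. Aqp4 was at 2508 in the HBC libraries and 3241 in RBCs. Its neighbours were lower, with Kctd1 at 142 and 539 and Chst9 at 171 and 358, both called higher in RBCs. Of 14 protein-coding neighbours that are no members, 6 were called higher in the RBC library, 0 higher in the HBC libraries, 6 were not called and 2 were not tested, where 34.2% and 12.8% of all genes tested were called. Of the 6, Zkscan2 and Aldh1a2 entered the test only through the RBC library.

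The genes most like Aqp3 and Aqp5 over the 4 libraries were found by the root mean square difference of log2 profiles, each less its own mean, among 9404 genes averaging 100 or more. With 3 near-equal libraries and 1 other, this measure finds genes with the same fold change. For Aqp3 they were Zfp651, Crat, Iqcb1, Mllt6 and Myo10, at differences of 0.0102 to 0.0169. Crat, carnitine acetyltransferase, was at 69.4 ± 0.373 (SD, n = 3) in the cultures and 244 in RBCs. For Aqp5 they were Ranbp1, Apbb2, Lrrc20, P4ha2 and Ctsh, at differences of 0.0145 to 0.0209. Ctsh, the lysosomal protease cathepsin H, was at 3299 ± 44.8 and 887.

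Genes that anchor aquaporins or move them to the membrane differed in both directions. Among 25 genes tested, 9 were called higher in RBCs, 3 higher in the cultures and 13 were not called, with a median log2 change of 0.49 against 0.45 over all genes. Of the 9, Avpr2 had an HBC mean under 1 and entered the test only through the RBC library. These shares, 36.0% and 12.0%, lie near the 34.2% and 12.8% of all genes tested. With library medians equalized the counts were 6 and 5. Sntb1, a syntrophin of the dystrophin complex, was among the former, at 14.6 ± 3.88 (SD, n = 3) in the cultures and 310 in RBCs (limma adjusted p = 0.00485). Vamp2, a vesicle fusion protein, was at 201 ± 17.0 and 1183 (adjusted p = 0.00199). Towards the HBC libraries stood Msn, the actin linker moesin (2507 ± 15.0 against 155.1, adjusted p = 4.67e-06), the recycling GTPase Rab11a (3848 ± 64.9 against 989, adjusted p = 0.000185) and the vesicle protein Vamp3 (1495 ± 17.2 against 630, adjusted p = 0.000235).

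Glycerol metabolism bears on Aqp3, which passes glycerol. Among 15 genes tested, 7 were called higher in RBCs, 1 higher in the cultures and 7 were not called, with a median log2 change of 1.06 against 0.45 over all genes, of which 34.2% and 12.8% were called. The counts were 5 and 3 with library medians equalized, and under quantile normalization the median was -0.05, so no direction is given for the list. Glycerol kinase, Gyk, was at 544 ± 24.3 (SD, n = 3) in the cultures and 317 in RBCs, under the 2-fold minimum. Equalizing library medians took it past that minimum (log2 change -1.28). Gpd1, the cytosolic glycerol-3-phosphate dehydrogenase, was at 3.29 ± 0.903 and 55.9 (limma adjusted p = 0.00460), whereas its mitochondrial counterpart Gpd2 was higher in the HBC libraries (533 ± 5.19 against 246, adjusted p = 0.000260). Mgll, a lipase that frees glycerol, was at 37.5 ± 4.89 and 292 (adjusted p = 0.00356), and Pnpla3, a lipid droplet enzyme, at 2.0 ± 0.658 and 40.8 (adjusted p = 0.00492). In the RBC library the 6 fat cell markers summed to 11.3, against 0 to 11.1 in the HBC libraries. Different genes made up these sums: Fabp4 was at up to 10.6 in the HBC libraries and 2.12 in RBCs, and the lipid droplet gene Plin4 was at 0.235 ± 0.249 (SD, n = 3) and 9.16.

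Transport genes of fluid-secreting epithelia differed in both directions. Among 19 genes tested, 10 were called higher in RBCs, 2 higher in the cultures and 7 were not called, with a median log2 change of 1.06 against 0.45 over all genes, of which 34.2% and 12.8% were called. Of the 10, 4 (Kcnma1, Chrm1, Best2 and Slc26a4) had an HBC mean under 1 and entered the test only through the RBC library, so the count and median support no direction for the list. With library medians equalized the counts were 7 and 5, and under quantile normalization 9 and 5. Slc12a2, the chloride uptake carrier of secretory cells, was nearly level (1175 ± 9.14, SD, n = 3, in the cultures and 1446 in RBCs), and it lay lower in RBCs once library medians were equalized (log2 change -0.21). The potassium channel Kcnma1 was at 0.576 ± 0.554 and 131.9, and the anion channel Best2 at 0.176 ± 0.304 and 39.3. The muscarinic receptor Chrm1 was listed at 0 in the cultures and at 49.1 in RBCs. Higher in the HBC libraries, as Aqp5 was, were carbonic anhydrase Car2 (783 ± 16.1 against 74.7, limma adjusted p = 7.53e-05) and the bicarbonate carrier Slc4a4 (487 ± 3.91 against 198.6, adjusted p = 0.000157). The part of other cells in these differences was not tested.

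Osmotic response and cell volume genes were divided. Among 17 genes tested, 4 were called higher in RBCs, 3 higher in the cultures and 10 were not called, with a median log2 change of 0.31 against 0.45 over all genes, of which 34.2% and 12.8% were called. The balance turned under other scalings, to 3 and 6 with library medians equalized and to 2 and 5 under quantile normalization. Nfat5, the transcription factor of the osmotic response, was at 556 ± 54.1 (SD, n = 3) in the cultures and 871 in RBCs, under the 2-fold minimum. Its known targets did not all move the same way: the taurine carrier Slc6a6 was at 1417 ± 55.4 and 17020 (limma adjusted p = 0.000260), whereas aldose reductase Akr1b3 was at 555 ± 24.1 and 183 (adjusted p = 0.00142). A further target, Slc5a3, was at 43.4 ± 1.33 and 90.3 and was called higher in RBCs. It was named after its values were seen. Sgk1, a kinase of salt and volume control, was at 203 ± 9.74 and 4401 (adjusted p = 0.000250), and the kinase Wnk4 at 20.2 ± 1.55 and 80.6 (adjusted p = 0.00393). Quantile normalization took Wnk4 below 2-fold (log2 change 0.71). The volume-regulated anion channel genes Lrrc8c (198 ± 10.1 against 46.2, adjusted p = 0.00132) and Lrrc8a (321 ± 22.1 against 157.5, adjusted p = 0.00685) were higher in the HBC libraries. The call of Lrrc8a was lost without HBC library 2 (log2 change -0.97). It was also lost with a pseudocount of 10 (-0.98), values as deposited (-0.91) and equal column sums (-0.92).

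**Figure D4:**
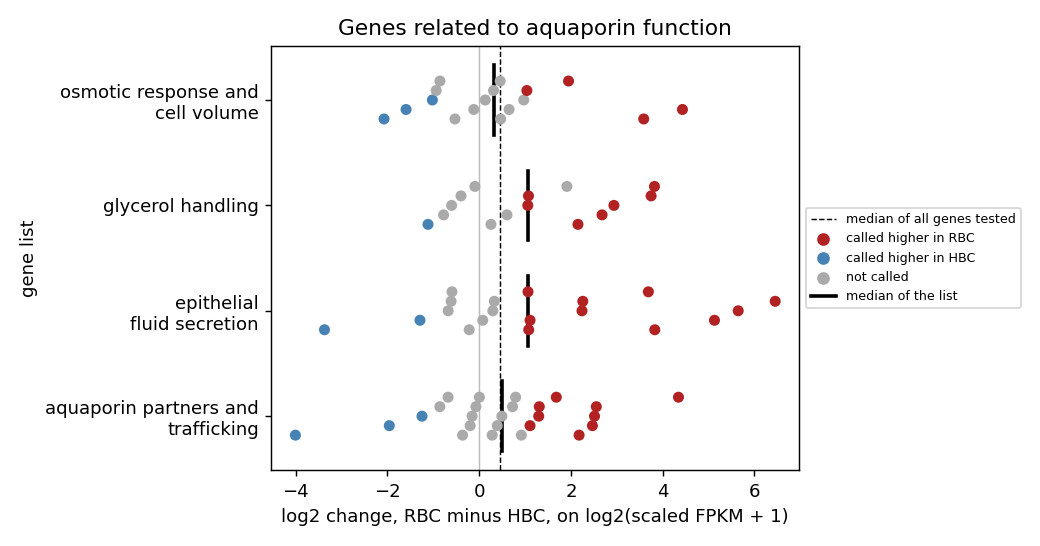
Log2 change, RBC minus HBC, of each tested gene (points, staggered for view) in 4 lists related to aquaporin function, with the median of each list (thick line) and of all genes tested (dashed line). The medians lie between 0.31 and 1.06, and each list holds genes called in both directions.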

How the data were processed

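RNA was sequenced from 3 HBC libraries and 1 RBC library. Per the labels' protocols, RNA came from a column microprep kit and libraries followed usual Illumina construction. Tools named in the submitters' processing notes are STAR, Cuffnorm and Cufflinks 2.2.1, with build mm9. Annotation, filters and strandedness were not given in the sources used here. As deposited by the authors, the data are 1 table of FPKM values per gene symbol. Low genes had the same step in all libraries, so values were divided by median-of-ratios factors from 11134 genes at 10 or more in all 4 libraries. Genes entered the test where both groups' means averaged at least 1, which held for 16440 of 23281.

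Limma 3.58.1 (R 4.3.3) was run on log2(value + 1) (mean-variance trend, two-sided, Benjamini-Hochberg adjustment), and a call needed a 2-fold or larger change with adjusted p below 0.05. The +1 understates changes of low genes. Spread came from the 3 HBC libraries alone, and the lone RBC library was assumed to vary as they do. Of the genes tested, 2652 had an HBC mean under 1 and entered only through the RBC library, and 2382 of them were called, among them all 1256 at 0 in every HBC library, so no p is printed for such genes. The procedure was tested on simulated data: it recovered large changes in abundant genes but missed most in genes at low levels, so a missing call there says little. The pass mark of that test was narrowed to genes averaging 100 or more after wider ones, over all genes tested and over genes averaging 10 or more, were not met, and Aqp1, Aqp2, Aqp8 and Aqp11 lie below it in the HBC libraries. Without counts, no counting interval is given.

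The members and lists were chosen with earlier results of these data known. All members are given. Of each list, its first gene and up to 3 called genes with the largest change in each direction are named, and for the 2 highest members the 5 most similar genes. The values of 1 gene that this rule names are not reported here. Of the 9 members, 8 had a promoter entry in RefSeq. In the marker lists, Ly6g was not listed. Alternatives were other pseudocounts, filters and scalings, no trend, and leaving out each HBC library.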

Additional observations from a re-analysis of the deposited data

How the results depend on the processing

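The calls of Aqp3 and Aqp5 held under all 12 alternatives, and their shares of the family sum under quantile normalization, the 1 alternative run for them. The family sum in RBCs, against the HBC mean, was 12.2% higher with values as deposited, 12.0% higher with equal column sums, -26.4% with library medians equalized and 19.9% higher under quantile normalization (alternatives chosen after seeing the data). The lower members depended on the processing, as did counts over all genes. With library medians equalized, 3790 genes were higher in HBC libraries (2105 otherwise), 2 aquaporins were higher in the RBC library (4 otherwise), and the log2 change was 0.58 for Aqp11, 1.46 for Aqp2 (neither called), -0.13 for Aqp4 and -0.21 for Slc12a2 (both reversed). Under quantile normalization, 3042 genes were higher in the RBC library (5621 otherwise) and 3589 in HBC libraries, 2 aquaporins were higher in the RBC library, and the log2 change was 0.38 for Aqp11 (not called) and -0.39 for Aqp2 (reversed). Of called genes, 72.8% were higher in the RBC library, which became 53.2% with equal medians and 45.9% under quantile normalization, as the median log2 change of all genes moved by -0.52 and -0.56; with values as deposited it moved by 0.11. Aqp11 also lost its call with a pseudocount of 10 (0.97) and with values as deposited (1.19), and Aqp2 with a pseudocount of 0.1 (2.13), without a filter (1.92) and without the trend (1.92).

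Leaving out each HBC library in turn put the family sum 2.80% to 4.77% higher in RBCs and gave 1 to 3 aquaporins higher in the RBC library, 1 of them (Aqp3) without library 2 and 2 without library 3. The log2 change was 1.88 to 2.16 for Aqp1, 0.95 to 1.13 for Aqp11 and 1.72 to 2.19 for Aqp2. The cause was not tested. Aqp8 could not be tested with a filter at a mean of 5 or without HBC library 3. No paired analysis was possible because the groups share only replicate number 1. The single RBC library and the low values of Aqp2, Aqp7, Aqp8 and Aqp9 limit what these data can show.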
